A study of Rattus norvegicus with 2 samples.

Results

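A set of 10 genes of corticosteroid, renin-angiotensin and adrenergic signalling was followed in failing and control rat hearts: Hsd11b1, Hsd11b2, Nr3c1, Nr3c2, Sgk1, Agt, Ace, Agtr1a, Adra1b and Adrb1. They were chosen by name, and every probe set whose platform annotation gave 1 of these symbols was read, which made 16 probe sets for 10 genes, of 7006 probe sets for 4736 genes in all. One further probe set, shared by Ace3 and Ace, is described apart. The high-salt array held total RNA of male Dahl salt-sensitive rats, aged 17 weeks, fed high salt, which the labels describe as having chronic heart failure. The low-salt array held RNA of rats of the same strain, sex and age fed low salt. The strain becomes hypertensive on salt, and both groups carry that background. Each diet had 1 array, and whether its RNA was pooled over animals, and from which chamber it came, is not stated in the labels. No value therefore has a spread between replicates, and every difference is a difference between these 2 arrays, with no p-value.

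Glucocorticoids and aldosterone act on the heart through a pair of related nuclear receptors. Hsd11b1 encodes the enzyme that regenerates active glucocorticoid inside the cell, and Hsd11b2 encodes the one that inactivates it, which in kidney leaves the mineralocorticoid receptor to aldosterone. In the renin-angiotensin system, angiotensinogen is cut by renin and then by angiotensin-converting enzyme to angiotensin II, which constricts vessels and promotes growth of heart muscle and matrix. Noradrenaline and adrenaline act on beta receptors, which raise cAMP and contractile force, and on alpha-1 receptors, which couple to phospholipase C; long stimulation of either system is a known feature of heart failure and a target of its drugs.

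The deposited intensities are on a linear scale and were already scaled alike, with 2% trimmed means of 99.98 on the high-salt array and 100.0 on the low-salt array. Values below 0 made up 27.3% of probe sets on each array, so a noise floor of 126.4 was used, which 95% of those values do not exceed in size. It takes the place of detection calls, which were not used here. Log2 ratios are of high salt over low salt after lower values were raised to the floor. A ratio with 1 array under the floor is a bound, and with both under it no ratio and no direction is given. As a measure of error within this pair of arrays, the log2 ratio of probe sets of the same gene had a pooled SD of 0.22 over 231 genes with several probe sets above the floor on both arrays, and that SD holds no variation between animals. Heart muscle transcripts were abundant on both arrays. Of 10 cardiomyocyte markers on the array, 9 reached the floor on both arrays, and the summed intensity of all 10 was 46703.2 in high-salt heart tissue against 49144.6 in low-salt heart tissue. The red cell markers Alas2, Hbb and Slc4a1 had a summed intensity of 7944.9 in high salt against 3134.8 in low salt. Most of it was Hbb, at 6982.3 in high salt and 2910.5 in low salt. Alas2 and Slc4a1 reached the floor in high salt alone in their brightest probe set. Another Slc4a1 probe set, above the floor on both arrays, read 168.3 in high salt and 174.8 in low salt. Nppa, the atrial natriuretic peptide gene, read 5997.7 in high salt against 833.4 in low salt. The other atrial markers on the array, Myl7 (96.0 in high salt, 95.5 in low salt) and Myl4 (38.4 in high salt, -9.6 in low salt), were under the noise floor on both arrays. The part of blood content or of the chamber sampled in the results below was not tested.

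Of the 10 genes, 3 reached the noise floor on at least 1 array: Hsd11b1, Ace and Adra1b. Over all genes 25.7% did so, 1216 of 4736. Hsd11b1 passed 2-fold upwards in high salt and none of the 10 passed it downwards. Across the 1216 genes measured, 43 were at least 2-fold higher, which is 3.54%, and 23 were at least 2-fold lower, which is 1.89%. Adra1b entered this count through its low-salt value alone. The other 7 genes had 13 probe sets, with intensities from -51.9 to 75.9 in the high-salt heart and from -56.8 to 102.2 in the low-salt heart.

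**Figure D1:**
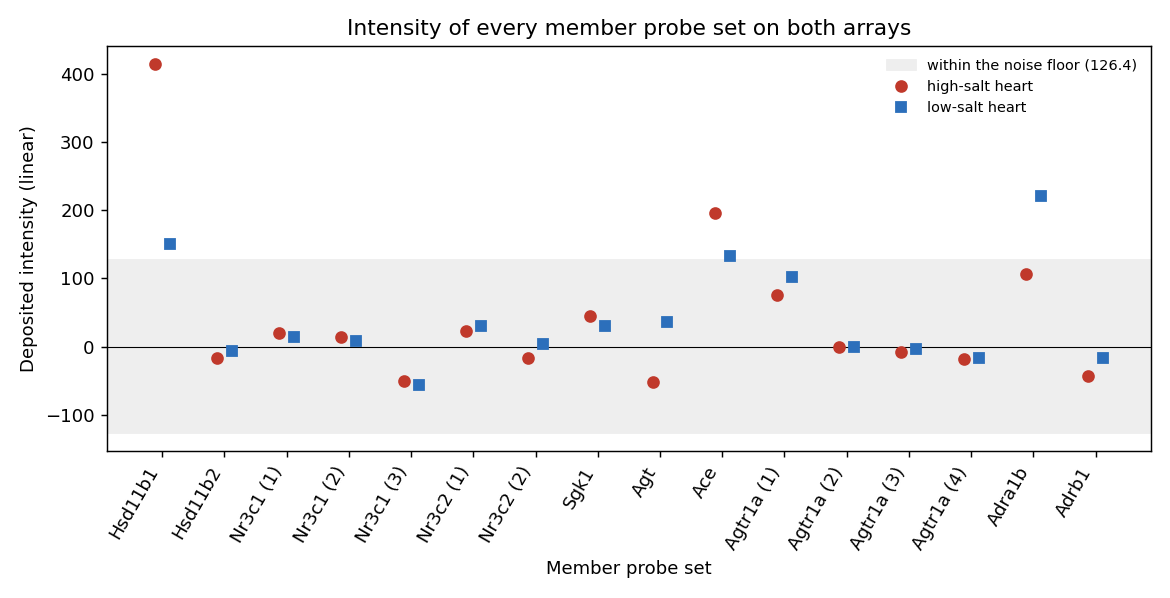
Deposited intensity (linear scale) of each of the 16 probe sets of the 10 genes; circles are the high-salt heart and squares the low-salt heart, 1 array each, and the grey band spans the noise floor of 126.4 on either side of 0. Hsd11b1 and Ace lie above the band on both arrays, Adra1b above it in low salt alone, and the other 13 probe sets within it.

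The RefSeq promoter table held windows for 6 of the 10 genes (Ace, Adra1b, Adrb1, Agtr1a, Nr3c1 and Sgk1), in 9 windows. The 250 bases before the start of Adra1b and Ace are shown, because these are the genes with a window whose RNA could be measured. Both come from the GRCr8 reference of a Brown Norway rat and not from the strain studied. The Adra1b window is chr10:28814348-28814597 on the minus strand and the Ace window is chr10:91409879-91410128 on the plus strand, each written 5′ to 3′ along the gene. Capitals mark matches to 5 motifs searched on both strands: the glucocorticoid receptor hexamer TGTTCT, the cAMP response element TGACGTCA, the TATA box TATAAA, the GC box GGGCGG and the CCAAT box CCAAT.
Adra1b: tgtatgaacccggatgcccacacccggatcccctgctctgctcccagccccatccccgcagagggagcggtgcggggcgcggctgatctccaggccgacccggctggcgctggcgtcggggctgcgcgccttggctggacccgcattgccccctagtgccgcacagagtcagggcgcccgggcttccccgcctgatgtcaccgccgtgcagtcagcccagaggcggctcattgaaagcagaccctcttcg
Ace: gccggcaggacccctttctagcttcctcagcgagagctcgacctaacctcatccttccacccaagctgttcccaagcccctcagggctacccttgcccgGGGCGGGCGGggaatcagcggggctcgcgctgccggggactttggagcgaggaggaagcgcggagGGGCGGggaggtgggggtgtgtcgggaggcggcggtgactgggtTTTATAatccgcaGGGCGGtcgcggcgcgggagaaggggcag
The Ace window held 4 GC boxes, 2 of which overlap, and a TATA match on the opposite strand 37 to 42 bases before the start. The Adra1b window held none of the 5 motifs and had a GC content of 70.8%, against 69.2% for Ace and a median of 51.2% over 33469 rat windows. No window of the 6 genes held the glucocorticoid receptor hexamer or the cAMP response element, which 17.5% and 1.59% of all windows held. The GC box was in 30.5% of all windows, the CCAAT box in 34.0% and the TATA box in 12.9%. These are matches of letters in a short window and say nothing of binding.

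Among the corticosteroid enzymes, Hsd11b1 was higher in the failing heart. Its probe set, rc_AI105448_at, read 413.9 in high-salt heart tissue against 149.9 in low-salt heart tissue. The high-salt value was well above the noise floor and the low-salt value just above it. The ratio was 2.76-fold, a log2 ratio of 1.47, and it was the 19th highest of 1216 genes. The log2 ratio was 6.58 times the SD among probe sets of a gene. That SD holds no variation between animals, so the multiple is no test of the difference. The SD also grew as dimmer probe sets were admitted, to 0.475 at a lower floor of 10.9. On its own array the high-salt value stood at percentile 91.7 of all probe sets, and the low-salt value at percentile 82.1 of its array. The gene has this probe set alone, so no other probes check the difference. Against a stricter floor of 271.2, which 99% of the values below 0 do not exceed in size, the low-salt value became a bound and the ratio was at least 1.53-fold.

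Hsd11b1 is active in liver, fat, fibroblasts and macrophages, so the markers of those tissues and cells on the 2 arrays are given beside it. In bulk tissue, fewer cells of a type and less RNA per cell cannot be told apart. Of the 6 adipocyte markers present, 3 were measured and none of these passed 2-fold. Fabp4 read 613.4 in high salt and 785.0 in low salt. The summed intensity of all 6 was 4027.4 in high salt against 4364.8 in low salt. The largest part of that sum was Lpl, at 2821.9 in high salt and 3098.2 in low salt. Lep read 531.1 in high salt and 453.6 in low salt, while its other probe sets were under the floor on both arrays. The sum is therefore not a measure of fat content. The fat-droplet protein gene Plin1 (-0.7 in high salt, -23.3 in low salt) and Cfd (2.2 in high salt, 6.8 in low salt) were near 0. Of 9 fibroblast markers, 7 were measured and none passed 2-fold, with a summed intensity of 3835.9 in high salt against 3422.5 in low salt. The collagen genes Col1a1 (1169.7 in high salt, 823.3 in low salt) and Col1a2 (292.8 in high salt, 193.8 in low salt) were higher in high salt. Col3a1 (545.4 in high salt, 599.5 in low salt), Dcn (1364.9 in high salt, 1443.6 in low salt) and Pdgfra (140.0 in high salt, 158.6 in low salt) were lower. The periostin gene Postn (167.3 in high salt, 5.0 in low salt) reached the floor in high salt alone. Lum (115.9 in high salt, 172.1 in low salt) reached it in low salt alone. The directions of Postn and Lum are therefore fixed by the floor. Of 6 liver markers, 5 were under the noise floor on both arrays, albumin among them (42.3 in high salt, 51.6 in low salt); the measured one, Ttr, read 282.3 in high salt and 141.3 in low salt, just short of 2-fold. The macrophage markers went both ways. Lyz2, which encodes lysozyme, read 458.6 in high salt against 130.4 in low salt, while Cd74, which encodes the chaperone of class II antigen presentation, read 507.3 in high salt against 1144.4 in low salt. Over the 5 macrophage markers present the sum was 1133.9 in high salt and 1442.5 in low salt, and Csf1r was near 0 at 1.0 in high salt and 22.7 in low salt. The part of any of these cells in the Hsd11b1 difference was not tested.

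The genes whose 2 intensities lay nearest to those of Hsd11b1, by Euclidean distance on the log2 scale among 956 other genes above the floor on both arrays, were Lyz2 (distance 0.25), Cdh2 (0.312) and Capg (0.333). Cdh2 encodes N-cadherin and read 346.7 in high salt and 169.6 in low salt. Capg encodes an actin-capping protein and read 399.7 in high salt and 188.3 in low salt. With 2 arrays this nearness says only that the pairs of values are alike.

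The opposing enzyme gene, Hsd11b2, read -17.4 in high-salt heart tissue against -7.0 in low-salt heart tissue, both under 0. It could not be measured here, and no ratio of the 2 enzymes was formed. Of 8 corticosteroid enzyme genes on the array, Hsd11b1 and Fdx1 were measured. Fdx1, the electron donor of mitochondrial steroid hydroxylases, read 410.0 in high salt and 408.0 in low salt. Its other probe set was below 0 on both arrays, at -6.2 in high salt and -15.9 in low salt. The aldosterone synthase gene Cyp11b2 read 28.6 in high salt and 13.8 in low salt, and Cyp21a1 and Star, the genes of steroid hydroxylation and cholesterol import in the adrenal, were below 0 on both arrays. Cyp11a1, the first enzyme of steroid synthesis, came closest to the floor at 74.5 in high salt and 108.7 in low salt.

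Neither corticosteroid receptor gene could be measured. The glucocorticoid receptor gene Nr3c1 has 3 probe sets: the brightest read 19.7 in high salt and 14.7 in low salt, the next 14.4 in high salt and 8.5 in low salt, and the lowest -50.5 in high salt and -56.8 in low salt. The mineralocorticoid receptor gene Nr3c2 read 22.2 in high salt and 30.2 in low salt in its brighter probe set, and -16.5 in high salt and 4.4 in low salt in the other. All 5 probe sets differed between the arrays by no more than 20.9 intensity units, whereas probe sets under the floor on both arrays had differences with an SD of 25.5 units (6785 probe sets). Of the receptors' chaperones and partners, Hsp90ab1 and Fkbp4 were measured, while Stip1, Ppid and Ncoa1 were under the floor on both arrays. Hsp90ab1, a chaperone that holds steroid receptors ready for hormone, read 1909.3 in high salt and 2165.7 in low salt, and its 4 probe sets had log2 ratios from -0.28 to -0.09. Fkbp4, the co-chaperone that links the receptor to dynein transport, read 45.2 in high salt and 245.7 in low salt, at least 1.94-fold lower, and its other probe sets read 25.1 in high salt against 133.4 in low salt and 19.7 in high salt against 109.3 in low salt. No Fkbp4 probe set reached the floor in high salt, and those that were measured entered through their low-salt values alone.

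Sgk1, a kinase gene induced by both hormones, read 44.7 in high-salt heart tissue against 30.7 in low-salt heart tissue, a difference of 14.0 units under the noise floor that gives no direction. Of 15 corticosteroid target genes on the array, 6 were measured. None passed 2-fold, 4 had a ratio below 1 and 2 above it, and the median log2 ratio was -0.57, beside -0.045 over all 1216 genes, where 54.5% had a ratio below 1. Dusp1, a phosphatase that switches off stress kinases, read 137.0 in high salt and 254.9 in low salt, 1.86-fold lower; its other probe sets read 63.4 in high salt against 165.7 in low salt and -6.1 in high salt against 78.9 in low salt. Klf9, a transcription factor that is also under clock control, read 322.9 in high salt and 543.1 in low salt, 1.68-fold lower, and 97.4 in high salt against 231.5 in low salt in its second probe set. Nfkbia, the inhibitor of NF-kappa-B, read 174.0 in high salt and 283.5 in low salt, 1.63-fold lower, and 71.4 in high salt against 198.3 in low salt in its second. The brightest probe set of each of these 3 genes was above the floor on both arrays, whereas their other probe sets reached it in low salt alone or not at all, so the direction of those is fixed by the floor. Atp1b1, a sodium pump subunit, read 785.9 in high salt and 1070.1 in low salt. In the other direction, Glul, which encodes glutamine synthetase, read 782.4 in high salt and 601.9 in low salt, 1.3-fold higher. Its other probe sets read 758.9 in high salt against 413.9 in low salt, 369.9 in high salt against 262.5 in low salt, and 144.9 in high salt against 101.3 in low salt, with log2 ratios from 0.20 to 0.87 over all 4. Anxa1, a gene of glucocorticoid-induced anti-inflammatory action, read 143.2 in high salt and 98.1 in low salt and was measured through its high-salt value alone. Dusp1 and Nfkbia are also early response genes of other stimuli, and the labels do not give the time of day at which hearts were taken. The part of other stimuli or of the time of day in these ratios was not tested.

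**Figure D2:**
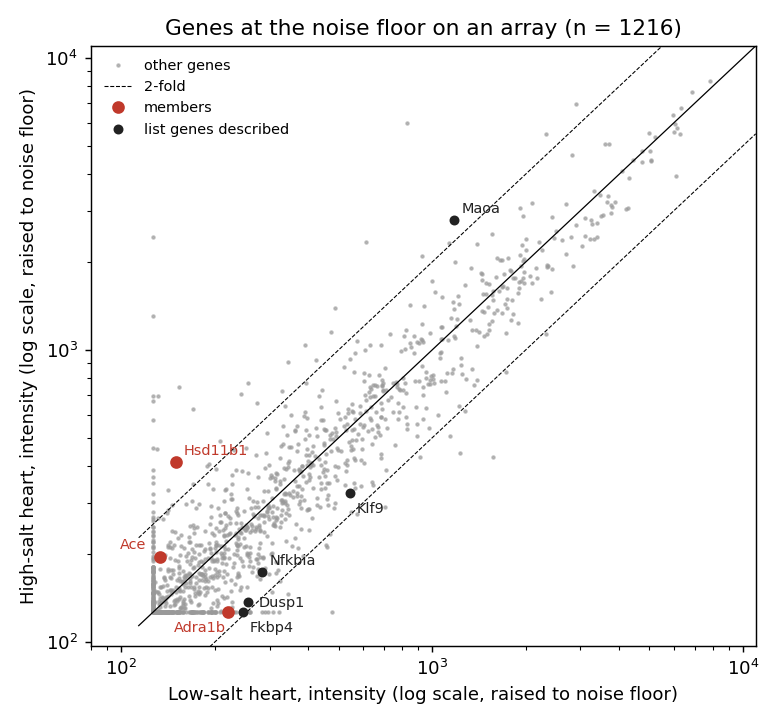
Intensity in the high-salt heart (vertical, log scale) against the low-salt heart (horizontal, log scale) for the 1216 genes at or above the noise floor on an array, in their brightest probe set, with values under 126.4 raised to it. Hsd11b1 and Maoa lie above the upper 2-fold line, Ace between the lines, and Adra1b, Fkbp4, Dusp1, Klf9 and Nfkbia below the diagonal but not past the lower 2-fold line.

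Of the renin-angiotensin genes, only Ace was measured among the members. Ace, which encodes angiotensin-converting enzyme of endothelial cells, read 196.1 in high-salt heart tissue against 133.2 in low-salt heart tissue in probe set U03734_at. The low-salt value stood barely above the floor, and the ratio was 1.47-fold, a log2 ratio of 0.56, at rank 124 from the highest of 1216 genes. At 1.5-fold or more, which Ace narrowly missed, 113 genes were higher, or 9.29%. The probe set shared with Ace3 read 36.6 in high salt and 40.3 in low salt, under the noise floor, so it neither repeats nor contradicts the difference. Of the other endothelial markers, Flt1 read 121.3 in high salt and 127.9 in low salt, Pecam1 117.5 in high salt and 107.4 in low salt, Nos3 98.9 in high salt and 101.0 in low salt, Kdr 43.6 in high salt and 21.5 in low salt, and Vwf 14.3 in high salt and 5.7 in low salt. Flt1 touched the floor in low salt and the rest stayed under it. Over the 5 endothelial markers other than Ace the summed intensity was 395.6 in high salt and 363.5 in low salt. Their part in the Ace difference was not tested. The genes nearest to Ace in both intensities were Trappc14, Gas5 and Chmp2a, at distances of 0.022, 0.061 and 0.111 on the log2 scale.

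Agt, the angiotensinogen gene, read -51.9 in high-salt heart tissue against 36.0 in low-salt heart tissue. Both values were under the noise floor and no ratio is given. The difference was -87.9 units. Of 6785 probe sets under the floor on both arrays, 57 (0.84%) had a difference at least as far down. The central 95% of those differences ran from -53.2 to 49.7 units. The share was counted for Agt alone, which had the largest difference of the 13 member probe sets under the floor on both arrays. It makes no allowance for that choice and gives no direction. A value below 0 on one array cannot be read as a level, and Agt has this probe set alone.

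Agtr1a, the main angiotensin II receptor gene of the heart and vessels, has 4 probe sets that did not read alike. The brightest read 75.9 in high-salt heart tissue against 102.2 in low-salt heart tissue, still under the noise floor. A second probe set, named for the same sequence record, read -0.2 in high salt and -1.4 in low salt, the third -7.4 in high salt and -4.2 in low salt, and the fourth -19.0 in high salt and -16.2 in low salt. Apart from the brightest, the Agtr1a probe sets were thus near 0 on both arrays. The related receptor genes Agtr1b (-22.6 in high salt, -19.6 in low salt), Agtr2 (-11.8 in high salt, -11.1 in low salt) and Mas1 (-8.1 in high salt, -0.3 in low salt) were below 0 on both arrays.

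Of 20 renin-angiotensin genes on the array, 4 were measured and none passed 2-fold, with a median log2 ratio of 0.07. Besides Ace these were Ctsd, which encodes the protease cathepsin D, at 390.9 in high salt and 374.4 in low salt, Anpep, an angiotensin-trimming aminopeptidase, at 170.8 in high salt and 218.8 in low salt, and Bdkrb1, a bradykinin receptor, at 141.5 in high salt and 133.2 in low salt. The other probe sets of Anpep (27.6 in high salt against 39.7 in low salt, and 5.3 in high salt against -23.2 in low salt) were under the floor. So was that of Bdkrb1 (-9.1 in high salt, 1.7 in low salt). The chymase gene Cma1 read -57.5 in high salt and -157.9 in low salt and so gave no level.

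Among the adrenergic receptors, Adra1b was lower on the high-salt array. It encodes the alpha-1B receptor, which activates phospholipase C in heart muscle, and it read 106.8 in high-salt heart tissue against 220.6 in low-salt heart tissue. The low-salt value was above the noise floor and the high-salt value under it. Against the floor the gene was therefore at least 1.74-fold lower (log2 ratio -0.80), the 47th lowest of 1216 genes. Measured through its low-salt value alone, it could only come out lower, so this direction is fixed by the floor. Divided without a floor, the deposited values gave 2.07-fold lower, with a high-salt value that lay under the noise floor. At 1.5-fold or more, 115 genes were lower, or 9.46%. With the floor lowered to 10.9, Adra1b and Agt both counted as at least 2-fold lower, as did 7.27% of 3451 genes, while 7.3% counted as at least 2-fold higher. The single Adra1b probe set, M60655_at, stood at percentile 77.3 on the high-salt array and at percentile 86.5 on the low-salt array.

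Adrb1, the gene of the main cardiac beta receptor, read -43.2 in high-salt heart tissue against -17.0 in low-salt heart tissue, at percentile 6.3 of all probe sets on the high-salt array and percentile 14.3 on the low-salt array. It could not be measured on these arrays. A pair of other alpha receptor genes, Adra1d and Adra2b, were above the floor on both arrays in their brightest probe set. Adra1d read 190.6 in high salt and 198.4 in low salt, a log2 ratio of -0.06, while its other probe set read -64.0 in high salt and -33.4 in low salt. Adra2b read 130.8 in high salt and 158.7 in low salt, a log2 ratio of -0.28. The remaining receptor genes were under it, with Adra1a at -30.2 in high salt and -28.1 in low salt, Adra2a at 92.3 in high salt and 94.0 in low salt, Adra2c at 23.5 in high salt and 15.5 in low salt, and Adrb3 at 64.4 in high salt and 68.5 in low salt. Of 8 adrenergic receptor genes on the array, 3 were measured and none passed 2-fold. Intensities of different probe sets are not comparable, so no order of receptor levels is given.

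Downstream of the receptors most genes could not be measured, and the differences of those measured on both arrays were small. Of 28 transducer and effector genes on the array, 9 were measured and 19 were under the floor on both arrays, with no ratio. Of the 9, none passed 2-fold, 4 had a ratio above 1 and 5 below it, and the median log2 ratio was -0.04. Gnas, the G protein subunit that stimulates cAMP synthesis, read 3499.6 in high salt and 3320.6 in low salt, and Gnai2, of the inhibitory class, 821.2 in high salt and 675.8 in low salt. Gnb1, a beta subunit of G proteins, read 160.3 in high salt and 128.0 in low salt. Prkaca, the catalytic subunit of the cAMP-dependent kinase, read 411.5 in high salt and 526.5 in low salt, its probe sets lying between log2 ratios of -0.36 and -0.27. Prkar2a, a regulatory subunit of that kinase, read 155.0 in high salt and 74.4 in low salt, above the floor in high salt alone. Pln, the gene of phospholamban, which the kinase phosphorylates to speed relaxation, read 1624.3 in high salt and 1899.7 in low salt. Of 8 desensitization genes, Grk6, a receptor kinase, was the one measured, at 219.9 in high salt and 165.2 in low salt. Its other probe set was under the floor, at 77.5 in high salt and 79.6 in low salt. The receptor kinase genes better known in heart, Grk2 (39.6 in high salt, 35.2 in low salt) and Grk5 (69.2 in high salt, 21.2 in low salt), were under the floor.

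The gene furthest from a ratio of 1 in the adrenergic lists was Maoa, which encodes monoamine oxidase A, a mitochondrial enzyme that breaks down noradrenaline. Its brighter probe set, S45812_s_at, read 2777.4 in high-salt heart tissue against 1178.0 in low-salt heart tissue, 2.36-fold higher, and the other, D00688_s_at, read 1776.8 in high salt and 932.8 in low salt, a log2 ratio of 0.93. All 4 values lay far above the noise floor, and the gene had the 28th highest ratio of 1216. Maoa is abundant in heart muscle, and the 9 measured cardiomyocyte markers had a median log2 ratio of -0.11. Which cells gave the Maoa difference was not tested. The genes of catecholamine synthesis and of uptake by sympathetic nerves were not measurable, with Th at -63.0 in high salt and -73.9 in low salt and Slc6a2 at 55.8 in high salt and 35.2 in low salt. None of the 6 sympathetic nerve markers present reached the floor. Across the 53 adrenergic genes on the array 14 were measured, Maoa alone passed 2-fold, and the median log2 ratio was -0.05.

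**Figure D3:**
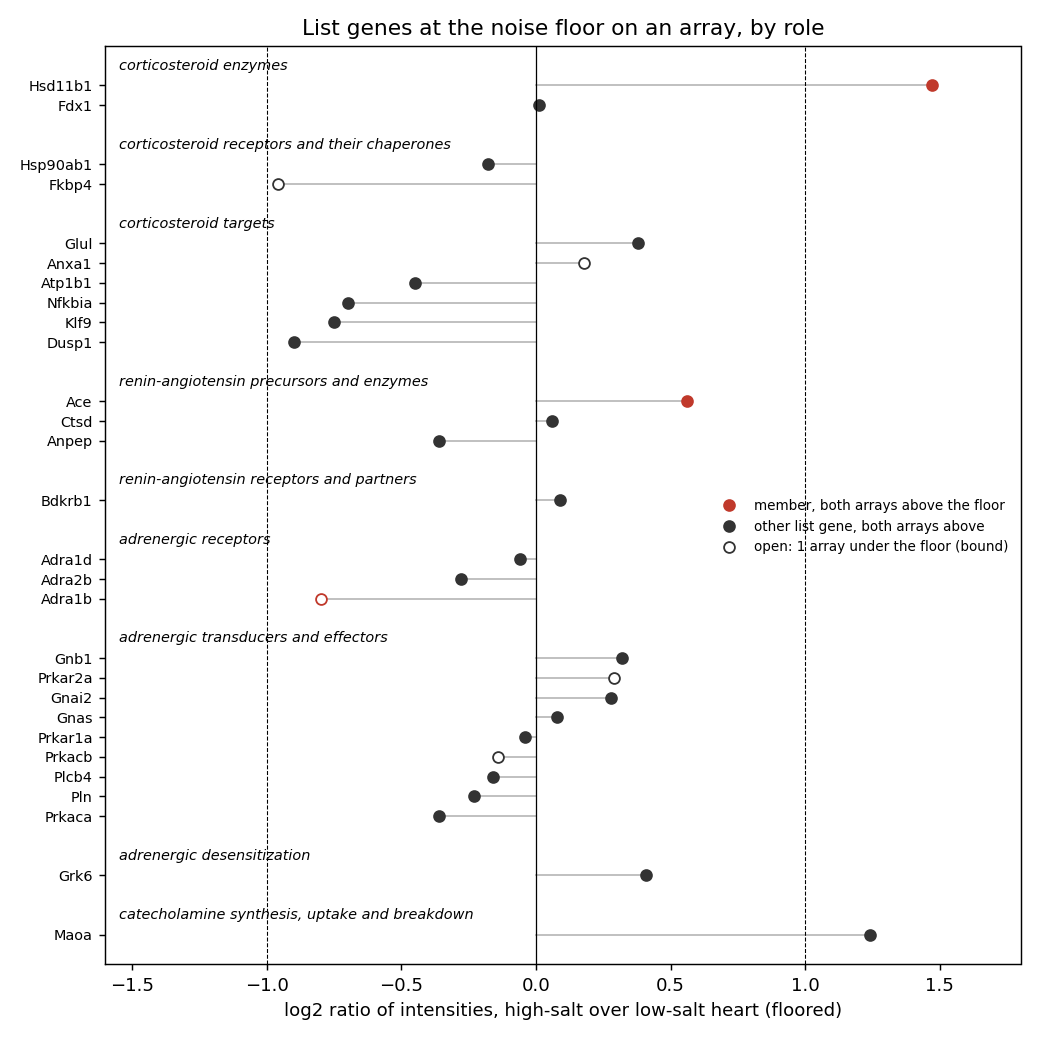
Log2 ratio of intensities, high-salt over low-salt heart, for every gene of the 9 role lists that reached the noise floor on an array; filled points are above it on both arrays, open points are bounds with 1 array under it, members are in red, and dashed lines mark 2-fold. Hsd11b1 at 1.47 and Maoa at 1.24 lie past the upper line and no gene past the lower one, with Fkbp4 at -0.96 nearest to it.

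Over all 9 lists together, 28 of the 103 genes on the array were measured, beside 25.7% of all genes. Of these 28, 2 were at least 2-fold higher and none was at least 2-fold lower. Over all 1216 genes measured, the shares were 3.54% and 1.89%. The ratios of Fkbp4 and Adra1b are bounds, so whether they passed 2-fold downwards is not known. Of the 28, 13 had a ratio above 1 and 15 below it, and the median log2 ratio was -0.05. Without the 10 members, 25 of 93 were measured, with a median of -0.06. By system, the median log2 ratio was -0.31 over the 10 corticosteroid genes measured, 0.07 over the 4 renin-angiotensin genes and -0.05 over the 14 adrenergic genes, beside -0.045 over all 1216 genes (quartiles -0.279 and 0.218). These medians depend on the floor. At the lower floor of 10.9 they were -0.114 for the corticosteroid genes and -0.180 for the renin-angiotensin genes, which turned sign, at the stricter floor of 271.2 the corticosteroid median was -0.064, and with no floor the medians of all 3 systems were 0.000. The adrenergic median lay near 0 and turned sign to 0.005 under loess and to 0.015 at the stricter floor.

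**Figure D4:**
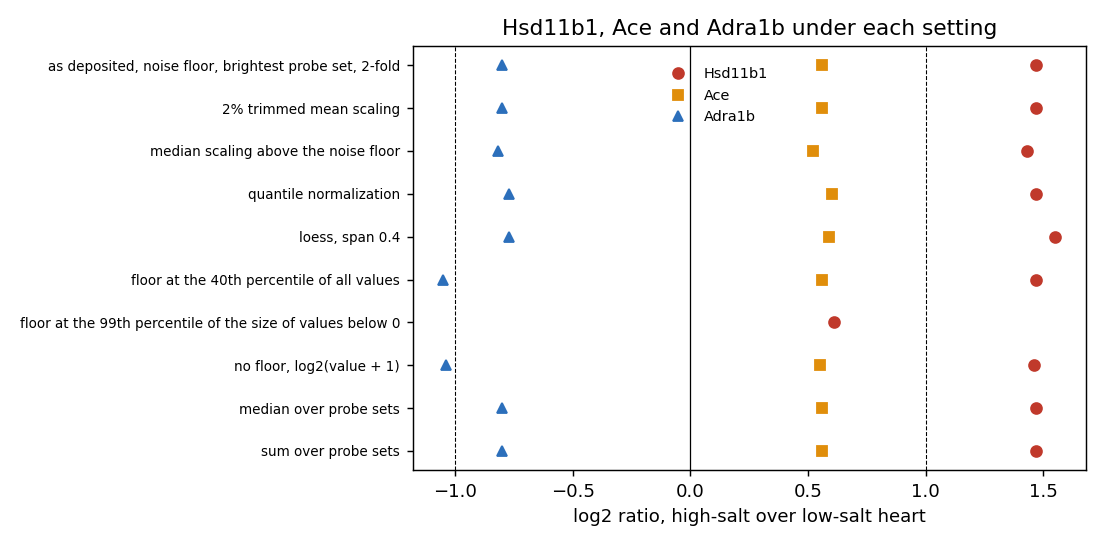
Log2 ratio (high-salt over low-salt heart) of Hsd11b1, Ace and Adra1b under the main setting (top) and 9 alternatives; dashed lines mark 2-fold, and a missing point means that both arrays were under that setting's floor. Hsd11b1 lies between 0.61 and 1.55, Ace between 0.52 and 0.60 and Adra1b between -1.05 and -0.77. No sign changed, and the floors and probe set rules could not have changed one. Under the scalings other than loess, Adra1b was still a bound that could only come out lower.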

How the data were processed

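Per the labels' protocols, total RNA was converted to biotin-labelled cRNA and read on 1-colour arrays. The authors deposited 1 intensity per probe set and array, of 8799 probe sets (59 controls). Which software computed them is not given in the sources used here, and detection calls were not used here. The 2% trimmed means differed by 0.025%, under the 10% tolerance, so the intensities were used as deposited. All value columns matched a sample. Names came from the platform annotation of 2016: 7006 probe sets had 1 symbol, 308 several and 1426 none; 6985 matched a RefSeq gene ID and none changed symbol. A gene was read in its brightest probe set, against the noise floor of 126.4. With 1 array per diet no test was made. The members, lists, floor and settings were chosen with earlier results of these data known. Named genes were all members, up to 4 genes of each list with the largest ratio and those past 2-fold, and the 3 genes nearest to Hsd11b1 and to Ace; other list genes and markers, among them Glul, Anxa1, Gnas, Pln and those under the floor, were chosen after their values were seen. The ratio and count steps were tested on simulated arrays. Alternatives were other scalings, floors, probe set rules, thresholds and memberships. Tools were Python 3.11.15, numpy 2.4.6, pandas 2.3.3, statsmodels 0.14.6 (loess, span 0.4) and matplotlib 3.10.9. Promoter sequences are from RefSeq (GRCr8); no coordinates are given for the probe sets.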

Additional observations from a re-analysis of the deposited data

How the results depend on the processing

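Hsd11b1 and Ace stayed higher and Adra1b lower in high salt under every alternative that gave them a ratio. Each has 1 probe set with its symbol alone, so the probe set rules returned the main value. No floor can reverse the order of a pair of values. Under those settings the sign was fixed in advance and is no check of the differences. Under the scalings other than loess, the high-salt value of Adra1b stayed under the floor, so its sign was fixed there too. With the floor at the 40th percentile of all values (10.9), 2 members were at least 2-fold lower, Adra1b (log2 ratio -1.05) and Agt (a bound of -1.72). There 252 genes of 3451 passed 2-fold upwards and 251 downwards, the renin-angiotensin median was -0.18 over 12 genes, and the SD among probe sets of a gene was 0.475. With the floor at 271.2 no member passed 2-fold (0 higher) and Hsd11b1 had a log2 ratio of 0.61. There 24 of 645 genes were higher and 9 lower, and the corticosteroid median was -0.064 over 7 genes, against -0.314 over 10. With no floor, on log2(value + 1), 2 members were lower (Adra1b at -1.04 and Agt). Of all 4736 genes, 463 were then higher and 476 lower, the corticosteroid median was 0.00 and the SD 1.275. These floors differ in how many dim probe sets they admit. At 1.5-fold 1 member, Adra1b, was lower, with 113 of 1216 genes higher (9.29%) and 115 lower (9.46%). At 3-fold 0 members were higher, with 14 of 1216 genes higher and 2 lower. Of 106 alternative values, 83 moved by less than the SD among probe sets or, for counts, by less than 1.5 times, and 23 moved further; the scalings and probe set rules moved none. No paired analysis was possible because each diet had 1 array. The number of arrays and the signal over background limit every value.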
